A study of Mus musculus with 37 samples.

Results

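The levels of 10 genes of tissue macrophages were followed through the components of the developing mouse kidney. The genes were chosen by name, and 15 probe sets of the array carry a symbol of 1 of them alone: 3 each for Csf1r and C1qb, 2 for Cx3cr1, and 1 for each of Mrc1, Cd68, Adgre1, C1qa, C1qc, Tyrobp and Lyz2. A filter on low values kept 14 of the 15, all but 1 probe set of Cx3cr1, so that all 10 genes were among the 15710 genes tested. For a gene with several probe sets, values are those of the probe set with the highest mean level.

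Wild-type mice of the outbred CD-1 strain gave 37 samples of 9 components, each on 1 Affymetrix array. At embryonic day E11.5 there were 8 samples of metanephric mesenchyme and 4 of ureteric bud, and at E12.5 there were 5 of renal vesicle. At E15.5 there were 4 of S-shaped body, 4 of renal corpuscle, 2 of proximal tubule, 3 of ureteric tip, 3 of medullary collecting duct and 4 of medullary interstitium. The labels describe each sample as a pool (about 50 sections, 5 kidneys) taken by laser capture, with 2 rounds of RNA amplification, but the titles of the 4 ureteric bud samples and of mesenchyme replicates 5 to 8 name dissection or collagenase instead. Replicates are numbered only to name them. The labels do not tie them to litters, so p-values measure the spread between these pools.

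Macrophages enter the embryo's organs from the yolk sac and fetal liver and settle in connective tissue, where they take up dying cells and secrete complement and growth factors. Their survival in most tissues depends on the receptor encoded by Csf1r, which binds the growth factors encoded by Csf1 and Il34. In the embryonic kidney they are known to lie in the mesenchyme and between the tubules. In tissue pools such as these, a lower level cannot be divided into fewer macrophages and less RNA per macrophage.

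Promoter sequences of 6 of the 10 genes in RefSeq (GRCm38.p6) were examined. Those of Csf1r, Adgre1, C1qa and Tyrobp were not, which does not show that these genes lack a match. Counts of member promoters below cover the 6 alone. Shown are those of Mrc1, C1qb, C1qc and Cd68, while those of Cx3cr1 and Lyz2 are not shown. The capitals mark GAGGAA and its reverse complement TTCCTC, the core bound by PU.1, the Ets factor that myeloid cells depend on. The bases end next to the annotated start of the gene and lie at chr2:14229164-14229413 (plus strand) for Mrc1, chr4:136886201-136886450 (minus strand) for C1qb, chr4:136892937-136893164 (minus strand) for C1qc and chr11:69666171-69666420 (minus strand) for Cd68.
Mrc1: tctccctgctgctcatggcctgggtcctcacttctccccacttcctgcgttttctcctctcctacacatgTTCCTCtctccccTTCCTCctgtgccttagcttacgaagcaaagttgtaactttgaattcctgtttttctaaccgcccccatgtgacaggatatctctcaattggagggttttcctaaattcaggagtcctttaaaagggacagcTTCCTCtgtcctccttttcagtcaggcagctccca
C1qb: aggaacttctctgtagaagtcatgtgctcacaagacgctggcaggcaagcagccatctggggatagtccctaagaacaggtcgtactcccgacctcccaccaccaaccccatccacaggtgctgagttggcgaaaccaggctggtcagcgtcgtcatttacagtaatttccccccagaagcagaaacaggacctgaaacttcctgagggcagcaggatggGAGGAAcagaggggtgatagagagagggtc
C1qc: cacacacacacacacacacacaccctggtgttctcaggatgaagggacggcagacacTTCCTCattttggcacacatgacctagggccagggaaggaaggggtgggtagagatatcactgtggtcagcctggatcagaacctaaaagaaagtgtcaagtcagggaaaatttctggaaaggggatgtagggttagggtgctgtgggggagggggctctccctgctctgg
Cd68: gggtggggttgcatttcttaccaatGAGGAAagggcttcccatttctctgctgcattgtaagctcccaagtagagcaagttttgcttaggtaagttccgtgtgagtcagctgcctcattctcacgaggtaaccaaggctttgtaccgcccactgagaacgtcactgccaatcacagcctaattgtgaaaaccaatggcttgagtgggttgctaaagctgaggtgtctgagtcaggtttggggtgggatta
The core was found 3 times in the Mrc1 sequence, starting 180, 167 and 35 bases before the gene. It was found 1 time each for C1qb (30 bases before), Cd68 (225) and C1qc. For C1qc it started 193 bases before the end of a 250-base window that reaches into the annotated gene. Only the 228 bases of that window outside the gene are printed. Counted on both strands, the core was present in 4 of the 6 member promoters, the 4 shown, and not in those of Cx3cr1 and Lyz2. It was present in 23.3% of 32851 mouse promoter windows of 250 bases. The AP-1 motif TGANTCA, which in these windows did not overlap the core, was found in 1 of the 6, Cd68, and in 6.75% of the windows. The letters TATAAA (12.4% of the windows) and CACGTG (6.02%) were in none of the 6. Such matches describe the letters alone. C1qb, C1qc and C1qa, which encode the chains of the complement protein C1q, lie side by side on chr4 in that order.

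Levels are given on a log2 scale, as log2 of the deposited signal plus an offset of 34.62, after quantile normalization. The offset places a signal of 0 near the lowest levels printed and makes differences of weak genes smaller. A gene is said to have been called higher or lower where its difference was at least 1 on the log2 scale with a limma p, adjusted over all 15710 genes, under 0.05. By podocyte genes, 2 samples stood apart from their labels. In S-shaped body replicate 3 the mean level of 4 podocyte genes was 14.93. It was 10.71 in replicate 2, 11.21 in replicate 4 and little more in replicate 1 of that component. In renal corpuscle replicate 4 it was 10.70, against 14.15 to 15.28 in the other renal corpuscle samples. The mean level of the 10 macrophage genes was 8.92 in that S-shaped body sample, against 7.37 to 7.84 in the other 3, and 8.16 in that corpuscle sample, inside the 7.95 to 8.88 of the others. Comparisons of the interstitium and of the corpuscle with other E15.5 components are given with and without both samples. The F test, the component means and the list counts include them. Other lists set further samples apart. In interstitium replicate 1 the mean level of the epithelial list was 12.34, against 9.61 to 10.62 in the other interstitium samples. In renal corpuscle replicate 2 the nephron progenitor list had a mean of 11.28, against 7.46 to 8.54 in the other corpuscle samples. The deposited signals were scaled to a common trimmed mean of 1500, and their medians ran from 127 to 334 per sample. Comparisons that share the mesenchyme or the interstitium samples are not independent of each other. 

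All 10 genes differed among the 9 components in an F test, against a background of 49.9% of all genes. The mean level of the 10 genes was 10.08 ± 0.57 (SD, n = 4) in the medullary interstitium and 9.38 ± 0.74 (SD, n = 8) in the mesenchyme. It was lowest in the ureteric bud, at 6.99 ± 0.10 (SD, n = 4). Between them lay the proximal tubule (8.86), renal vesicle (8.42), renal corpuscle (8.25), S-shaped body (7.94), collecting duct (7.77) and ureteric tip (7.34). The 4 interstitium samples (9.52 to 10.81) lay above all other samples of E15.5, of which proximal tubule replicate 1 came closest with 9.38. The spread within components was wide: renal vesicle replicate 3 had a mean of 10.04, above 6 of the 8 mesenchyme samples, whereas the other renal vesicle samples lay between 7.58 and 8.43.

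**Figure D1:**
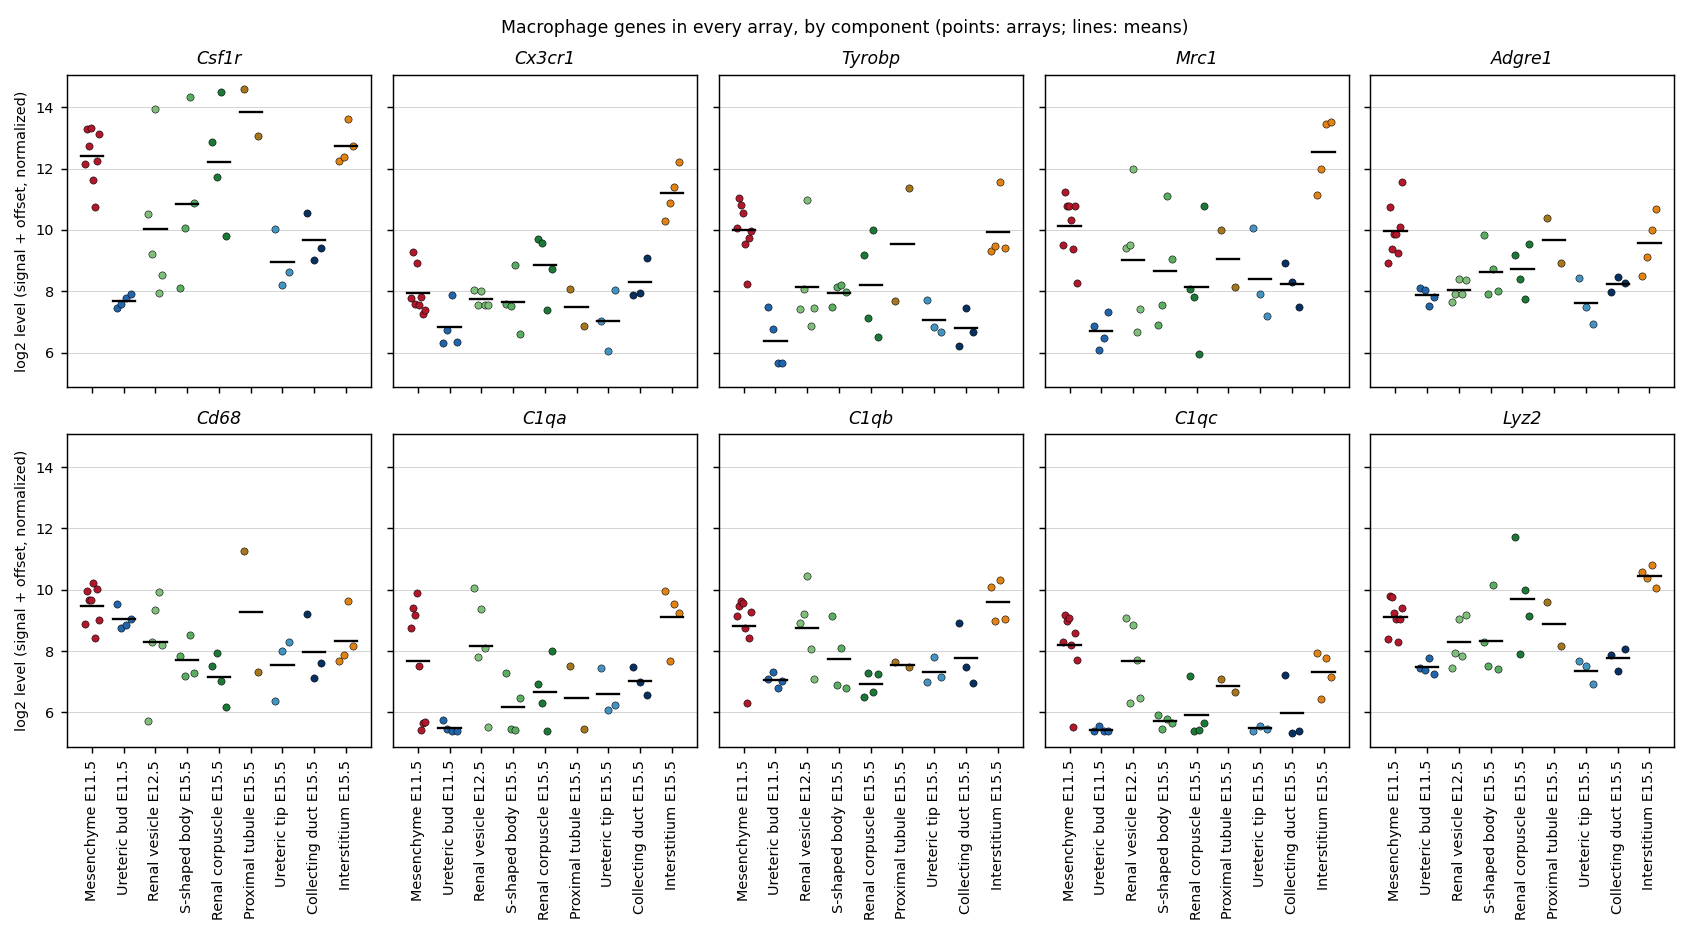
Log2 level (vertical axis) of the 10 macrophage genes in each of the 37 arrays, grouped by component and embryonic day (horizontal axis); points are arrays and lines are component means. Interstitium (orange) and mesenchyme (red) arrays lie high for most genes and ureteric bud arrays (blue) low, while single nephron arrays reach 14.60 for Csf1r.

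The first comparison asked how the mesenchyme differed from the ureteric bud that grows into it at E11.5. Of the 10 genes, 7 were called higher in the mesenchyme and none lower; over all genes, 4.07% were called higher. The median difference of the 10 genes was 2.14, against -0.02 for all genes. In 5 genes every mesenchyme sample lay above every bud sample, which held for 6.0% of all genes.

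Among the receptors and their adaptor, Csf1r had a lowest level of 10.76 and a highest of 13.33 in the mesenchyme, with middle values of 12.26 and 12.75, and 7.45, 7.59, 7.77 and 7.90 in the 4 bud samples. All mesenchyme samples were above all bud samples, and the difference of 4.73 ± 0.86 (SE) was a 26.6-fold higher level (limma, adjusted p = 0.000165). As deposited, before the offset, the Csf1r signal ran from 1458 to 10470 in the mesenchyme and from 85.48 to 127.8 in the bud. Tyrobp, which encodes the signalling adaptor DAP12, ran from 8.24 to 11.03 with a median of 10.02 in the mesenchyme, and was 7.48, 6.76, 5.65 and 5.65 in the bud. Its difference was 3.61 ± 0.68 (SE; adjusted p = 0.000246), again with no overlap. Cx3cr1, the receptor for fractalkine, was low in both: 7.26 to 9.27 (median 7.67) in the mesenchyme and 6.30, 6.73, 7.89 and 6.35 in the bud. The ranges overlapped, and the difference of 1.13 ± 0.48 (SE) did not pass the test (adjusted p = 0.186).

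Of the surface and lysosomal genes, Mrc1, which encodes the mannose receptor CD206, ran from 8.28 to 11.25 (median 10.55) in the mesenchyme and was 6.86, 6.09, 6.48 and 7.32 in the bud. Its ranges did not overlap, and it was 10.9-fold higher in the mesenchyme (log2 difference 3.45 ± 0.82 SE, adjusted p = 0.00376). Adgre1, which encodes the macrophage antigen F4/80, ran from 8.91 to 11.57 (median 9.87) against 8.10, 8.05, 7.52 and 7.80. It too was apart in all samples, by 2.09 ± 0.46 (SE; adjusted p = 0.00166). Cd68, a glycoprotein of lysosomes, was 9.55, 8.76, 8.86 and 9.06 in the bud, all inside its range in the mesenchyme (8.42 to 10.23, median 9.67), and its difference of 0.43 ± 0.61 (SE) did not pass the test (adjusted p = 0.881).

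Among secreted products, C1qc was called higher in the mesenchyme by 2.77 ± 0.53 (SE; adjusted p = 0.000351) and C1qb by 1.77 ± 0.54 (SE; adjusted p = 0.0325). C1qc lay between 7.70 and 9.19 in 7 mesenchyme samples and at 5.52 in replicate 6, within the bud's range of 5.38 to 5.55. C1qb was lowest in the same sample, at 6.30, against 8.43 to 9.64 in the other 7 and 6.80 to 7.33 in the bud. C1qa had a median of 8.13 and was split: 8.74, 9.39, 9.17 and 9.89 in mesenchyme replicates 1 to 4, and 7.53, 5.44, 5.67 and 5.69 in replicates 5 to 8, against 5.39 to 5.75 in the bud. Its difference of 2.18 ± 0.75 (SE) did not pass the test (adjusted p = 0.0676), although it did without mesenchyme replicate 6, 7 or 8 (adjusted p = 0.0261, 0.0317 and 0.0324). Lyz2, the lysozyme of myeloid cells, ran from 8.31 to 9.79 (median 9.14) in the mesenchyme and from 7.24 to 7.78 in the bud. These ranges were apart, by 1.66 ± 0.50 (SE; adjusted p = 0.0296).

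Csf1r, Mrc1, Adgre1, C1qc and Tyrobp were called in this comparison whichever single sample was left out. The call of C1qb was lost without mesenchyme replicate 1, 2, 3, 4 or 8 or without any 1 of the bud samples (adjusted p up to 0.102), and that of Lyz2 without mesenchyme replicate 2 or 3 or any 1 of the bud samples (adjusted p up to 0.101).

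Since the way of obtaining the tissue differed among the mesenchyme samples, the 4 titled dissection or collagenase were compared with the 3 titled LCM (laser capture). None of the 10 genes was called; the dissected samples had 0.0700% of all genes called higher and 0.178% called lower. In limma, 1 of the 10, C1qa, had an unadjusted p under 0.05: it differed by -3.18 ± 0.76 (SE; adjusted p = 0.0634), and passed the test without mesenchyme replicate 5 (-3.67, adjusted p = 0.0267). C1qa and Tyrobp lay lower in every dissected sample than in every laser-captured sample, as did 10.0% of all genes. Of 8 epithelial genes, 2 were called lower in the dissected samples, Cldn7 and Cdh1, with a mean level of the list of 7.61 to 7.93 against 9.19 to 10.67, and the median difference of 5 ureteric bud genes was -2.07; their part was not tested. With only the 4 dissected mesenchyme samples against the bud, whose titles name the same methods, 4 members were called higher, where 6.80% of all genes were called in either direction: Csf1r by 4.26 ± 1.04 (SE), Adgre1 by 2.33 ± 0.53 (SE), Tyrobp by 2.99 ± 0.80 (SE) and C1qc by 2.08 ± 0.60 (SE). Mrc1 then differed by 3.01 ± 0.98 (SE) and did not pass (adjusted p = 0.0611), nor did C1qa at 0.58 ± 0.72 (SE). With only the 3 laser-captured samples against the bud, 6 were called, where 4.66% of all genes were called in either direction: C1qa passed (3.76 ± 0.76 SE, adjusted p = 0.0023), and Adgre1 (1.52 ± 0.54 SE, adjusted p = 0.118) and Lyz2 (1.67 ± 0.66 SE, adjusted p = 0.186) did not.

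Other genes of the mesenchyme moved in the same direction. Of 11 stroma genes tested, 9 were called higher in the mesenchyme than in the bud, and their mean level was 12.03 to 12.90 in the mesenchyme samples and 8.19 to 8.85 in the bud. Of 10 endothelial genes 5 were called higher (mean level 8.87 to 10.69 against 8.03 to 9.0), and of 8 erythroid genes 4 (10.40 to 12.31 against 8.56 to 9.77). Their part in the values of the macrophage genes was not tested. The plot of list means shows the 4 lists side by side.

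**Figure D2:**
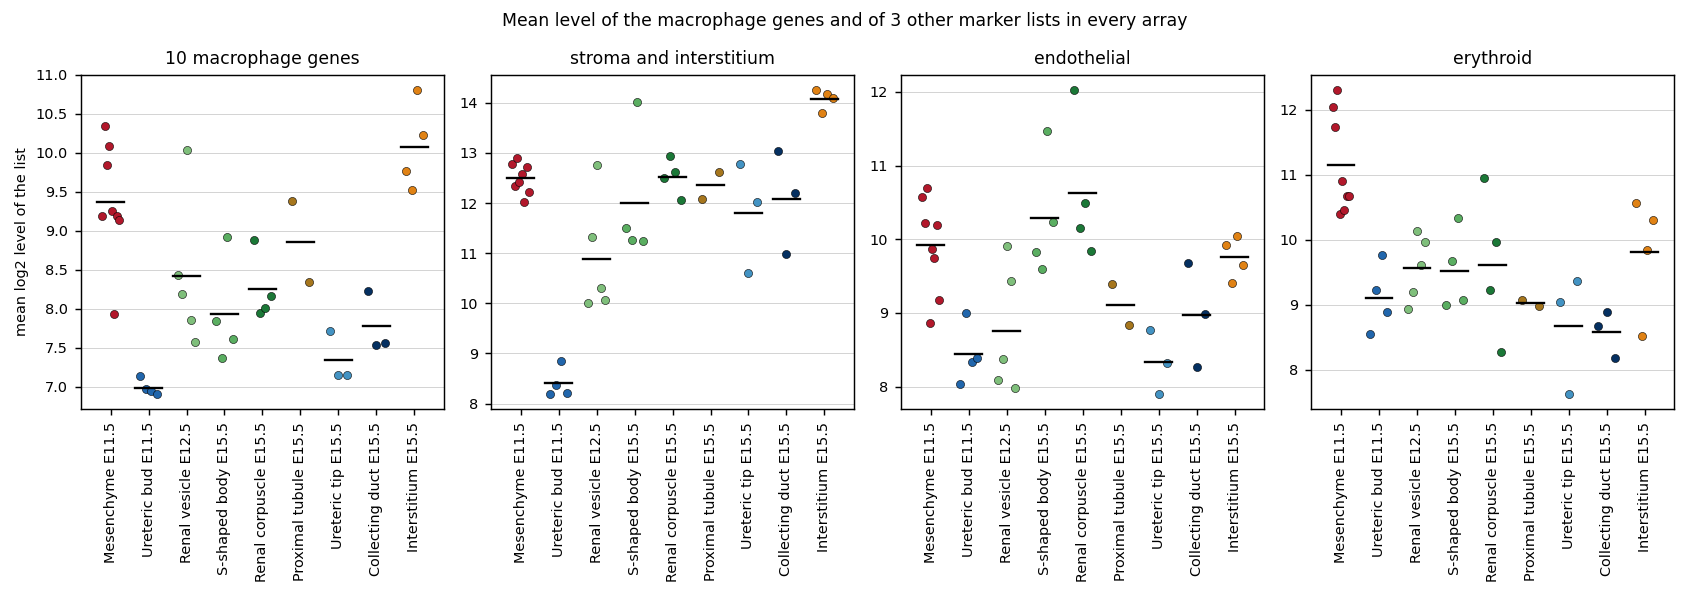
Mean log2 level (vertical axes, each with its own range) of the 10 macrophage genes and of the stroma, endothelial and erythroid lists in every array, by component (horizontal axis); points are arrays and lines component means. The component means of the macrophage and stroma lists are highest in the interstitium (10.08 and 14.08), that of the endothelial list in the renal corpuscle (10.63) and that of the erythroid list in the mesenchyme (11.15).

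The renal vesicle of E12.5, the first epithelium that condenses from the mesenchyme, was set against the mesenchyme of E11.5 next. Day, component and, for some samples, the way of obtaining the tissue differ together here and cannot be told apart. Here 3 of the 10 genes were called lower in the vesicle, against 7.98% of all genes, and none higher. Csf1r was 10.53, 9.22, 13.94, 7.95 and 8.54 in vesicle replicates 1 to 5, and its mean differed from that in the mesenchyme by -2.37 ± 0.80 (SE; adjusted p = 0.0409). Replicate 3 was above every mesenchyme sample, and the other 4 were below all of them. Tyrobp was high in the same sample, with 10.96 in replicate 3 and 7.41, 8.06, 6.85 and 7.44 in the others (-1.85 ± 0.63 SE, adjusted p = 0.0435). Adgre1 was 7.66, 7.91, 8.40, 7.91 and 8.36, below all mesenchyme samples, and differed by -1.91 ± 0.43 (SE; adjusted p = 0.00236). It was the only 1 of the 10 without overlap, which in this direction held for 3.72% of all genes.

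The complement genes did not pass the test in the vesicle. C1qa was 10.05, 7.82, 9.37, 8.10 and 5.51, a mean difference from the mesenchyme of 0.48 ± 0.70 (SE; adjusted p = 0.703). C1qb differed by -0.07 ± 0.50 (SE) and C1qc by -0.52 ± 0.50 (SE). C1qa was thus spread in the vesicle from near the lowest to the highest level of all 37 arrays. In replicate 3 the stroma list was also high, with a mean of 12.75 against 10.00 to 11.32 in the other vesicle samples, and against the mesenchyme 6 of 11 stroma genes (median difference -1.85), 3 of 10 endothelial and 3 of 8 erythroid genes were called lower in the vesicle. The part of these lists in the macrophage genes was not tested. Without replicate 3 the same number of members, 3, was called, with Csf1r at -3.35 ± 0.74 (SE). The counts rested on other samples: without any 1 of vesicle replicates 1, 2, 4 and 5 or mesenchyme replicates 2, 3, 4, 7 and 8, only Adgre1 was called, and without mesenchyme replicate 1 or 5 Tyrobp alone was lost (adjusted p = 0.0575 and 0.0519). With the 3 mesenchyme samples titled LCM alone, none was (Adgre1 -1.34, adjusted p = 0.167; Csf1r -2.71, adjusted p = 0.179; Tyrobp -2.33, adjusted p = 0.128).

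At E15.5 the medullary interstitium, the loose tissue between the tubules of the medulla, was set against the average of the other 5 components of that day. Of the 10 genes, 6 were called higher in the interstitium and none lower, against 3.48% of all genes called higher. The median difference of the 10 genes was 2.04, against 0.01 for all genes. In 2 genes, Mrc1 and Cx3cr1, the 4 interstitium samples lay above all 16 others, which held for 0.681% of all genes.

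Mrc1 was 11.15, 11.99, 13.46 and 13.53 in the interstitium, and 5.96, 8.10 and 11.09 at the lowest, median and highest of the other 16 samples. It was 16.4-fold higher, by 4.04 ± 0.75 on the log2 scale (SE; adjusted p = 0.000614). Cx3cr1 was 10.30, 10.87, 11.41 and 12.22 in the interstitium. Elsewhere at E15.5 it did not exceed 9.71, reached in renal corpuscle replicate 1, with a median of 7.92, and the difference of 3.34 ± 0.44 (SE) was a 10.1-fold higher level (adjusted p = 9.29e-06). Cx3cr1 was the only 1 of the 10 whose lowest interstitium sample lay above every sample of every other component. This rests on 1 probe set. The other Cx3cr1 probe set, left out by the filter on low values, was not raised in the interstitium. Its mean there was 6.36, with component means from 5.92 in the collecting duct to 6.96 in the renal vesicle. Tyrobp was 9.32, 9.47, 11.56 and 9.41 in the interstitium, with all but replicate 3 inside the range of the others, 6.23 to 11.36, and was called higher by 2.03 ± 0.62 (SE; adjusted p = 0.0398).

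C1qa was 9.96, 7.69, 9.53 and 9.23 in the interstitium against a median of 6.53 elsewhere, a difference of 2.52 ± 0.69 (SE; adjusted p = 0.0202). C1qb was 10.10, 8.98, 10.33 and 9.05 against a median of 7.27, a difference of 2.15 ± 0.50 (SE; adjusted p = 0.00534). For both, interstitium replicates 1 and 3 were the highest, and only 1 sample of E15.5 outside the interstitium reached their lowest: renal corpuscle replicate 4 for C1qa (8.0) and S-shaped body replicate 1 for C1qb (9.15). C1qc was 7.93, 6.43, 7.76 and 7.15 and did not pass (1.33 ± 0.49 SE, adjusted p = 0.0976). Lyz2 was 10.57, 10.37, 10.82 and 10.05, the narrowest spread of the 10 in this component, and was higher by 2.04 ± 0.46 (SE; adjusted p = 0.00433), and renal corpuscle replicate 1 (11.73) and S-shaped body replicate 3 (10.15) alone reached its lowest sample from elsewhere at E15.5.

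The remaining 3 genes did not pass. Csf1r was 12.25, 12.37, 13.62 and 12.75 in the interstitium, but 8.10, 10.30 and 14.60 at the lowest, median and highest of the others, so that its difference was 1.64 ± 0.79 (SE; adjusted p = 0.231). Adgre1 was 8.51, 9.11, 10.00 and 10.69 (1.01 ± 0.42 SE, adjusted p = 0.151). Cd68 was 7.67, 7.87, 9.63 and 8.17, inside the range of the others (0.40 ± 0.56 SE, adjusted p = 0.760).

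When renal corpuscle replicate 4 and S-shaped body replicate 3 were left out, 6 members were again called, with Mrc1 at 4.38 ± 0.66 (SE) and Csf1r at 1.72 ± 0.66 (SE; adjusted p = 0.105). Without interstitium replicate 3, 3 were called, Mrc1 (3.73 ± 0.85 SE), Cx3cr1 (3.27 ± 0.50 SE) and Lyz2 (1.92 ± 0.52 SE), and these 3 were called whichever single sample was left out. Calls over all genes fell as well, from 963 to 413 without interstitium replicate 3 and to 490 without replicate 4. The call of C1qa was lost without interstitium replicate 1, 3 or 4 (adjusted p up to 0.097) and that of C1qb without replicate 3 (adjusted p = 0.0554). The call of Tyrobp was lost without interstitium replicate 2, 3 or 4, proximal tubule replicate 1, collecting duct replicate 1 or 3, or ureteric tip replicate 2 or 3 (adjusted p up to 0.272). It was lost as well with median scaling in place of quantile normalization (1.96, adjusted p = 0.0562) and when only the samples compared were fitted (2.03, adjusted p = 0.0804). Of the stroma list 7 of 11 genes were called higher in the interstitium too, with a mean level of 13.79 to 14.26, whereas none of 10 endothelial and none of 8 erythroid genes was. The part of the stroma in the macrophage values was not tested.

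Against the medullary collecting duct, the epithelium next to it in the medulla, 4 of the 10 genes were called higher in the interstitium (2.01% of all genes were). They were Mrc1 (4.30 ± 1.02 SE, adjusted p = 0.00954), Tyrobp (3.15 ± 0.84 SE, adjusted p = 0.0222), Cx3cr1 (2.89 ± 0.60 SE, adjusted p = 0.00317) and Lyz2 (2.69 ± 0.63 SE, adjusted p = 0.00808). In 8 of the 10, all but Cd68 and C1qc, every interstitium sample was above every duct sample, against 9.24% of all genes. Csf1r, at 10.55, 9.02 and 9.42 in the duct, was apart by 3.09 ± 1.07 (SE) without passing the test (adjusted p = 0.10). The call of Cx3cr1 was the only 1 kept without duct replicate 2. Without duct replicate 3 that of Lyz2 was kept as well and those of Mrc1 (adjusted p = 0.0652) and Tyrobp (0.0833) were lost. Without duct replicate 1 or interstitium replicate 3 that of Tyrobp alone was lost (adjusted p = 0.0873 and 0.113). Calls over all genes fell as well, from 701 to 173 without duct replicate 2, 366 without duct replicate 3 and 404 without interstitium replicate 3.

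The mesenchyme of E11.5 and the interstitium of E15.5, the 2 components with the highest mean level of the 10 genes, were compared with each other directly. Only 2 of the 10 genes were called higher in the interstitium, against 4.67% of all genes, and none was called lower. Cx3cr1 was 9.54-fold higher there, by 3.25 ± 0.48 (SE; adjusted p = 1.79e-05), and its ranges were apart. Mrc1 was higher by 2.39 ± 0.82 (SE; adjusted p = 0.0465), with overlap at the lowest interstitium sample. Lyz2 was apart in all samples but not called (1.33 ± 0.50 SE, adjusted p = 0.0714). Samples all above were thus seen in 2 of the 10, Cx3cr1 and Lyz2, and in 4.70% of all genes. Other lists moved in the same comparison: 4 of 11 stroma genes, among them the matrix genes Dcn (5.04) and Lum (4.89), and 3 of 8 epithelial genes were called higher in the interstitium, and 4 of 6 nephron progenitor and 3 of 8 erythroid genes lower. Their part in the macrophage genes was not tested.

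The other members differed by less than the test could call, in either direction: Csf1r by 0.34 ± 0.86, Tyrobp by -0.06 ± 0.68, Adgre1 by -0.38 ± 0.46, C1qa by 1.41 ± 0.75, C1qb by 0.79 ± 0.54, C1qc by -0.88 ± 0.53 and Cd68 by -1.15 ± 0.61 (all ± SE). The call of Cx3cr1 held whichever single sample was left out, whereas that of Mrc1 was lost without interstitium replicate 2, 3 or 4 or mesenchyme replicate 1, 5, 6, 7 or 8 (adjusted p 0.0527 to 0.163). It was lost also with an offset of 16 (adjusted p = 0.0604), with median scaling (2.00, adjusted p = 0.0737), with no filter on low values (adjusted p = 0.0533) and with the mesenchyme samples titled LCM alone (2.17 ± 1.06 SE, adjusted p = 0.280), when Cx3cr1 differed by 3.11 ± 0.61 (SE). Day, component and, for some samples, the way of obtaining the tissue differ together between these groups and cannot be told apart.

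A further test took the interstitium minus collecting duct difference of each gene and subtracted its mesenchyme minus bud difference. None of the 10 genes was called, against 1.39% of all genes called in either direction, and 1 of the 10, Cx3cr1, had an unadjusted limma p under 0.05. The interaction was 1.76 ± 0.77 (SE; adjusted p = 0.419) for Cx3cr1 and -1.65 ± 1.37 (SE; adjusted p = 0.804) for Csf1r, the largest in each direction.

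**Figure D3:**
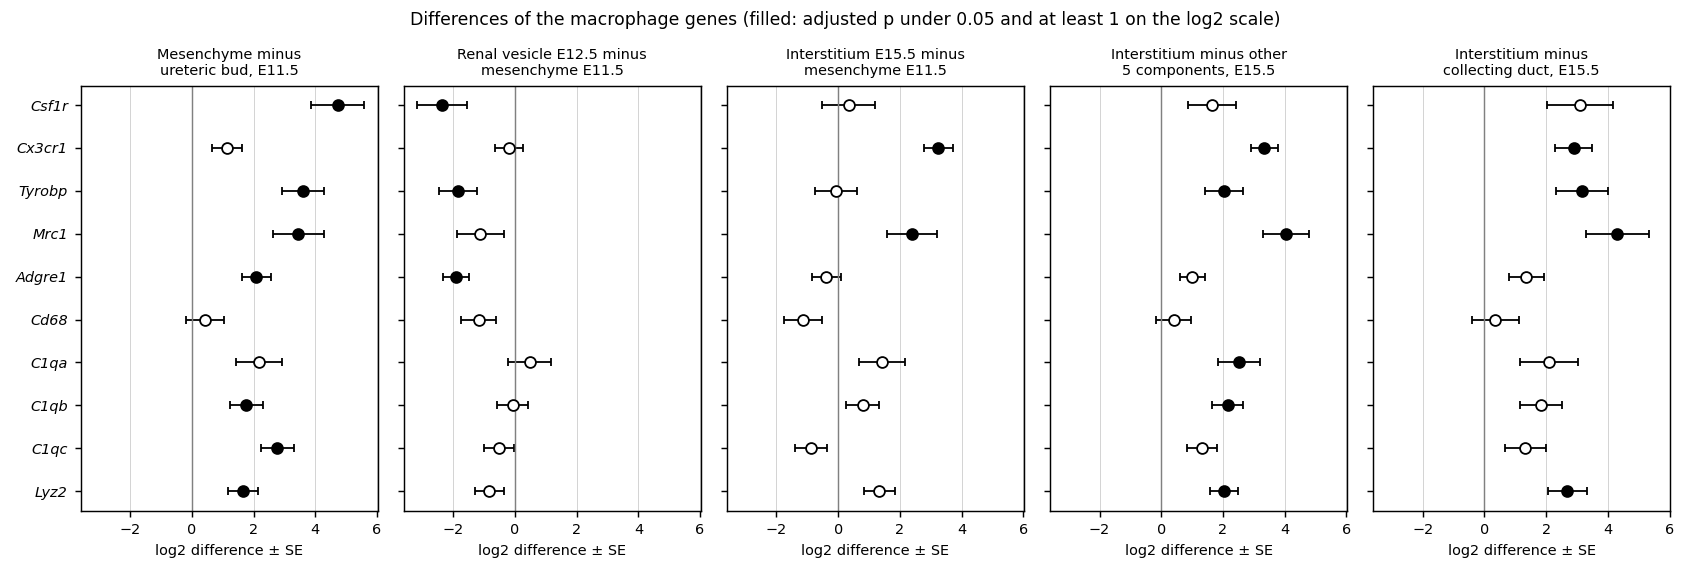
Log2 difference ± SE (horizontal axes) of each of the 10 macrophage genes (rows) in 5 comparisons of components (panels); filled points are called genes (adjusted p under 0.05 and a size of at least 1), open points are not. Cx3cr1 stands at 3.25 between interstitium and mesenchyme, where Csf1r and Tyrobp stand near 0.

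Within the epithelia of E15.5, the renal corpuscle, which holds the forming glomerulus with its capillaries, was set against the average of the other 4. Lyz2 was the only 1 of the 10 called higher, by 1.61 ± 0.48 (SE; adjusted p = 0.0339), where 2.39% of all genes were called higher. It was 11.73, 7.92, 9.99 and 9.14 in the corpuscle samples, and 6.93, 7.78 and 10.15 at the lowest, median and highest of the other 12. Its call was lost without corpuscle replicate 1 (0.93, adjusted p = 0.269), corpuscle replicate 3 (adjusted p = 0.105), proximal tubule replicate 2 (0.066) or collecting duct replicate 2 (0.0521). It was lost also with median scaling (1.41, adjusted p = 0.0662), with array weights (1.80, adjusted p = 0.0917) and when only the samples compared were fitted (adjusted p = 0.197). Both Lyz2 (1.94 ± 0.49 SE, adjusted p = 0.00922) and Csf1r (2.49 ± 0.76 SE, adjusted p = 0.0327) were called higher when corpuscle replicate 4 and S-shaped body replicate 3 were left out. Cx3cr1 was 9.71, 9.58, 7.39 and 8.74 in the corpuscle and did not pass (1.24 ± 0.46 SE, adjusted p = 0.0963), except without corpuscle replicate 3 (1.73, adjusted p = 0.0332). The endothelial list had a mean level of 9.84 to 12.03 in the corpuscle samples, with 4 of 10 genes called higher there, and its part in these values was not tested.

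Csf1r was highest in single nephron samples. Its 4 highest levels of all 37 arrays were proximal tubule replicate 1 (14.60), renal corpuscle replicate 3 (14.48), S-shaped body replicate 3 (14.33) and renal vesicle replicate 3 (13.94), above the highest interstitium sample at 13.62. On a second Csf1r probe set interstitium replicate 3 was at 11.18 and the highest mesenchyme sample at 11.67. That probe set read 12.81, 12.42, 11.66 and 11.75 in these 4 nephron samples, all above that interstitium sample but not all above the mesenchyme. The other genes did not move as a block there: Mrc1 was 12 in the vesicle sample and 11.09 in the S-shaped body sample, but 5.96 in the corpuscle sample, the lowest of all arrays, where C1qa was 5.40. The stroma list had a mean of 12.09, 12.61, 14.02 and 12.75 in these 4 samples in the same order, and its part was not tested. The proximal tubule sample had the highest Cd68 of all arrays (11.25), with Mrc1 at 9.98 and Cx3cr1 at 8.07. Proximal tubule replicate 2 had a Csf1r level of 13.07 and a Tyrobp level of 11.36, with C1qa at 5.45.

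The order of the component means differed between the genes. For Csf1r the proximal tubule was first (13.83), then the interstitium (12.75), the mesenchyme (12.41) and the renal corpuscle (12.22), and neighbours in the order overlapped down to the bud, which was last and apart from the ureteric tip above it. The interstitium had the highest mean for Mrc1, Cx3cr1, C1qa, C1qb and Lyz2, and the mesenchyme for Cd68, Adgre1, C1qc and Tyrobp. Among these 9 genes the interstitium and the renal corpuscle for Cx3cr1 were the only neighbours without overlap. The third Csf1r probe set behaved differently from the other 2: it stayed between 7.56 and 9.73 in all arrays and differed by 0.21 ± 0.35 (SE) between mesenchyme and bud, where the second differed by 3.05 ± 0.68 (SE). The 3 probe sets of C1qb were all called higher in the mesenchyme than in the bud (1.77 to 2.85), but in the interstitium against the other components of E15.5 the third, which alone has no suffix for shared sequence, did not pass (1.32 ± 0.55 SE, adjusted p = 0.168).

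How far the 10 genes moved together was described by correlations over the 37 arrays, which share components and, in part, a title date code. The 45 pairs had Pearson correlations from -0.02 to 0.78 with a median of 0.49, and, after each component's mean was subtracted, from -0.08 to 0.69 with a median of 0.27. The 3 pairs of C1q genes had correlations of 0.72 to 0.77, and 0.62 to 0.69 within components. Against the mean of the other 9, Mrc1 (0.78) and Tyrobp (0.75) correlated most and Cd68 (0.28) least. Cd68 and Cx3cr1 were unrelated over the arrays (-0.02).

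**Figure D4:**
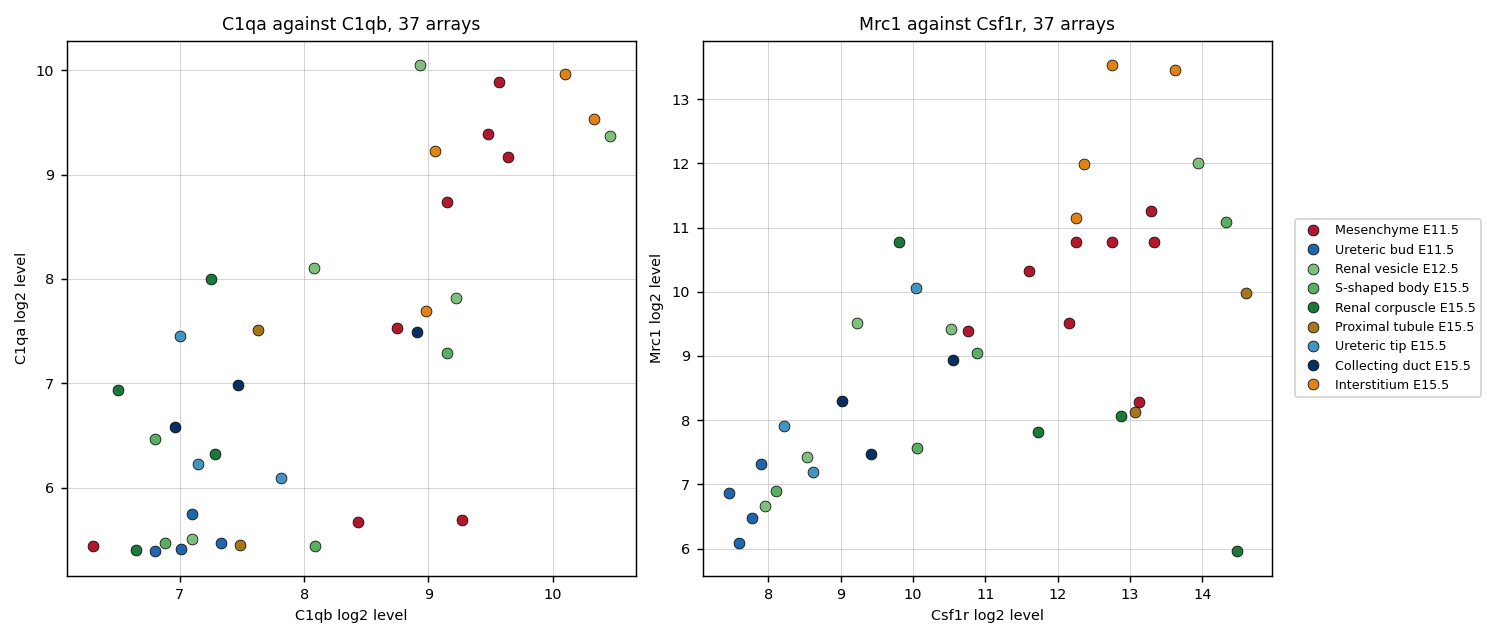
C1qa against C1qb (left) and Mrc1 against Csf1r (right), as log2 levels in the 37 arrays, coloured by component. Several arrays share a C1qa level near 5.4 across a range of C1qb; renal corpuscle replicate 3 lies at the lower right of the Mrc1 panel with Csf1r at 14.48 and Mrc1 at 5.96.

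Each C1q gene was set against its own range in the bud, and in 2 of the 4 dissected mesenchyme samples C1qa departed from the other 2. In mesenchyme replicate 5, C1qa (7.53), C1qb (8.75) and C1qc (8.20) all lay above their bud ranges. In mesenchyme replicates 7 and 8, C1qa (5.67 and 5.69) lay inside its bud range of 5.39 to 5.75, while C1qb (8.43 and 9.27) and C1qc (8.59 and 7.70) lay above theirs. In mesenchyme replicate 6, C1qc (5.52) lay within its bud range, and C1qa (5.44) did too, whereas C1qb (6.30) was below the lowest bud sample. The C1qb probe sets disagreed here: a second one lay inside its own bud range of 5.49 to 6.83 in replicates 6 (5.83) and 8 (6.42), and the remaining one lay above the highest bud sample, at 6.24 on that probe set, in both (6.68 and 6.59). In replicate 6 Csf1r (10.76), Adgre1 (9.26) and Mrc1 (9.39) were all above their bud ranges. Signals behind the lowest levels were small, 7.14 for C1qa in replicate 6 and 3.65 for C1qc in ureteric bud replicate 1, and detection calls were not analysed here.

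The nearest genes to the mean of the 10 over the 37 arrays were Epb41l2 (Pearson r = 0.868), Ms4a6b (0.844), Lyz1 (0.822), Fxyd1 (0.812) and Cdh11 (0.795), followed by Hspa12b, Col5a1, Lgals1, Tmem119 and Enho (0.788 to 0.773). After component means were subtracted, Ms4a6b (0.814) came first, then Arap3 (0.770), Selenop (0.757), Nrros (0.727) and Gas6 (0.719), with Epb41l2 still among the 10. Lyz1 is a near copy of Lyz2, and the probe set read as Lyz1 carries a suffix for shared sequence, so these 2 lysozymes are not cleanly separated.

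Other myeloid genes were counted from lists. Of 12 genes of embryonic resident macrophages, 8 were called higher in the mesenchyme than in the bud (median difference 2.10), led by Cd83 (5.24 ± 0.54 SE), Maf (4.4 ± 0.95) and Dab2 (3.56 ± 0.56). In the interstitium against the other components 6 of the 12 were called higher, led by F13a1 (3.13 ± 0.59), Ms4a7 (2.57 ± 0.56) and Pf4 (2.32 ± 0.54), and against the mesenchyme 3, Lyve1 (2.29 ± 0.60), F13a1 (2.07 ± 0.65) and Pf4 (1.71 ± 0.59). In the vesicle 3 of the 12 were called lower than in the mesenchyme, F13a1, Pf4 and Dab2. Maf and Dab2 are also known from kidney epithelium, and both had their highest component mean in the proximal tubule (12.74 and 13.59).

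Of 11 genes of phagocytosis and lysosomes, 2 were called higher in the mesenchyme than in the bud, Mpeg1 (4.22 ± 0.72) and the protease gene Ctss (3.89 ± 0.95), and 1, Mpeg1, in the interstitium (2.10 ± 0.66). Of 11 leukocyte and Fc receptor genes, 2 were called higher in each: Laptm5 (4.29 ± 0.79) and Fcgr3 (3.10 ± 0.82) in the mesenchyme, and Fcgr3 (2.68 ± 0.76) and Cd53 (2.12 ± 0.56) in the interstitium. The leukocyte marker Ptprc, which encodes CD45, did not differ by a callable amount between mesenchyme and bud (0.35 ± 0.65, adjusted p = 0.921), and its highest component mean, 9.88, was in the ureteric tip. None of 7 myeloid transcription factor genes was called in either comparison, and Spi1, which encodes PU.1, differed by 0.13 in both, with component means between 7.29 and 8.42. In the vesicle, Ptprc (-1.99 ± 0.60), Laptm5 (-3.52 ± 0.73) and Lcp1 (-1.92 ± 0.59) of the 11 leukocyte genes were called lower than in the mesenchyme, and Fcgr1 higher (1.3 ± 0.36).

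Among 6 genes of the signals that macrophages respond to, Cxcl12 alone was called higher in the mesenchyme than in the bud (2.08 ± 0.54). Csf1, the ligand gene of the Csf1r receptor, was 8.77 in the mesenchyme and 7.54 in the bud (1.23 ± 0.43, adjusted p = 0.0729), and 9.34 in the interstitium, and Il34 did not pass in any of the 5 comparisons plotted. None of 7 monocyte and granulocyte genes was called higher in the mesenchyme or, among E15.5 components, in the interstitium, although the monocyte receptor gene Ccr2 was called higher in the interstitium than in the mesenchyme (1.20 ± 0.36). Of 4 mast cell and lymphoid genes, the mast cell protease gene Cpa3 was called higher in the interstitium than in the other components (2.00 ± 0.63) and than in the mesenchyme (2.19 ± 0.68).

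Some titles end in a code that has the form of a date, and codes shared by samples of different components allowed values within a code. Interstitium replicate 1 shared its code with collecting duct replicate 2, S-shaped body replicate 2, ureteric tip replicate 3 and proximal tubule replicate 2. Its mean of the 10 genes was 9.77, against 7.54, 7.37, 7.15 and 8.34, and 6 of the 10 genes were higher in it than in all the others. All 10 were higher in interstitium replicate 3 than in renal corpuscle replicate 2 (means 10.81 and 7.95) and in interstitium replicate 4 than in ureteric tip replicate 1 (10.23 and 7.72). Mesenchyme replicate 6, the mesenchyme sample with the lowest mean, shared a code with ureteric bud replicate 3 and proximal tubule replicate 1, and 7 of the 10 genes were higher in it than in the bud sample (means 7.94 and 6.95), but only 1 of the 10 was higher in it than in the proximal tubule sample (mean 9.38). With the code as a fixed term, which leaves only such samples to compare, none of the 10 was called in any comparison of components. In the F test 1 of the 10 was called. Few genes of any kind were called in that fit: 972 in the F test (7844 without the term), 0 for mesenchyme against bud (1278) and 12 for the interstitium against the others (963). Mrc1 and Cx3cr1 then differed by 3.81 (adjusted p = 0.102) and 3.08 (adjusted p = 0.101) between the interstitium and the other components.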

How the data were processed

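RNA of 37 pools of embryonic kidney tissue was hybridised to Affymetrix arrays. The authors deposited 1 table of signal intensity per probe set and array, made with GCOS per the submitters' processing notes (version not given), and the values show global scaling: the mean of every array, trimmed by 2%, was 1500. A table of the array's annotation gave 34945 of 45101 probe sets 1 gene, 932 several and 9160 none. The 64 controls were left out of this count, but not of the normalization and the filter.

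Before the log2 transform and quantile normalization, 34.62 was added to each intensity (20% of all values lay below it). Probe sets above the median of all values in at least 2 arrays were kept, with 1 probe set per gene (highest mean), leaving 15710 genes. Component means were fitted with limma 3.58.1 in R 4.3.3, with Benjamini-Hochberg adjustment over all genes. Groups came from the labels. The fit was tested on simulated data. The members and lists were chosen with earlier results of these data known.

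All members are described. Of a list, at most 3 called genes with the largest difference per comparison, the receptor's ligands, Ptprc and Spi1 are named; other named list genes (Lcp1, Fcgr1, Ccr2 and Cpa3) were picked with their values in view. The 10 genes most correlated with the mean of the members are named. Alternatives were the offset, scaling, filter, choice of probe sets, weights per array, fits restricted to the compared samples, the title's date code or number as a block, mesenchyme subsets and leaving out each sample. The subset of mesenchyme samples titled dissection or collagenase was added after seeing the data. So were the comparisons without S-shaped body replicate 3 and renal corpuscle replicate 4. Probe sets naming several genes or none, and detection calls, were not analysed here.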

Additional observations from a re-analysis of the deposited data

Results flagged for a closer look

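Dixon's criterion was applied 66 times, to each of the 10 genes and to their mean in each component of 4 to 8 samples. In 5 of these a sample lay far from the others, which chance flags in about 1 in 20. The 66 share samples and are not independent of each other. Mesenchyme replicate 6 was low for C1qb (6.30, the others 8.43 to 9.64) and for C1qc (5.52, the others 7.70 to 9.19). Renal corpuscle replicate 1 was high for C1qc, at 7.18 against 5.40 to 5.66. Ureteric bud replicate 2 was high for C1qc, at 5.55 against 5.38 to 5.41, where all 4 values lie near the lowest levels of the gene. Interstitium replicate 3 was high for Tyrobp, at 11.56 against 9.32 to 9.47.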

How the results depend on the processing

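Of 225 recomputed counts of members called, 180 lay within 1.5 times the reported count, 40 below and 5 above. Of 1749 recomputed member differences, 1556 kept their direction and side of the threshold, and 111 lost and 22 gained a call. A further 59 without a call changed sign and stayed without a call. Of the called differences 1 changed sign: C1qb between mesenchyme and bud, -0.50 with the date code as a fixed term. That fit called 1 member in the F test and 0 in the mesenchyme-bud, vesicle-mesenchyme, interstitium-others, interstitium-mesenchyme, interstitium-duct and corpuscle comparisons. With the date code as a random block, 1 was called for vesicle against mesenchyme. Interstitium against mesenchyme gave 1 with an offset of 16, with median scaling, with no filter and with laser-captured mesenchyme alone, which gave 0 for vesicle against mesenchyme. Dissected mesenchyme alone gave 4 against the bud. The corpuscle gave 0 with median scaling, array weights or only the samples compared, and 2 without S-shaped body replicate 3 and corpuscle replicate 4. Dissected against laser-captured mesenchyme gave 1 with an offset of 100, 2 with array weights and 1 with only the samples compared. The cause was not tested.

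Leaving out 1 sample gave 9 to 10 members in the F test, 5 to 8 for mesenchyme against bud, 1 to 3 for vesicle against mesenchyme, 3 to 6 for interstitium against the others, 1 to 2 against mesenchyme, 1 to 4 against duct, 0 to 1 for the corpuscle and 0 to 1 for dissected mesenchyme. In that order the counts over all genes were 7214 to 8202, 961 to 1250, 1380 to 1986, 413 to 1167, 1097 to 1860, 173 to 796, 614 to 1533 and 9 to 45.

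With the title number as a replicate block, the counts were 9 in the F test, 7 for mesenchyme against bud, 4 for vesicle against mesenchyme, 6, 2 and 5 for the interstitium against the others, mesenchyme and duct, 1 for the corpuscle and 0 for dissected mesenchyme. Deviations of same-numbered samples of different components had a median correlation of 0.007, against -0.004 for samples with different numbers. Correlations above 0.1 made up 10.1% and 7.4% of these pairs. Such medians cannot show whether single pairs of samples are linked.

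Over all genes, main counts were 7844 (F test), 1278 (mesenchyme-bud), 1861 (vesicle-mesenchyme), 963 (interstitium-others), 1805 (interstitium-mesenchyme), 701 (interstitium-duct), 1010 (corpuscle) and 39 (dissected). In that order the date code as a fixed term gave 972, 0, 45, 12, 157, 85, 5 and 3. Median scaling gave 3036 for interstitium-mesenchyme and 17 for dissected. Array weights gave 2484 (mesenchyme-bud), 1454 (interstitium-duct), 326 (corpuscle) and 1119 (dissected). Only the samples compared gave 2119 (mesenchyme-bud), 510 (interstitium-others), 281 (corpuscle) and 200 (dissected). The largest-variance probe set gave 23 for dissected. The replicate block gave 1075 for vesicle-mesenchyme and 19 for dissected. Laser-captured mesenchyme alone gave 732 (mesenchyme-bud), 389 (vesicle-mesenchyme) and 474 (interstitium-mesenchyme). Median scaling moved the median of all genes from -0.02 to -0.23 for mesenchyme-bud, from -0.11 to -0.40 for interstitium-mesenchyme and from 0.09 to 0.25 for interstitium-duct. The lowest signals of C1qa and C1qc were small, and the part of this in their differences was not tested.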
